A study of Mus musculus with 5 samples.

Results

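The BCL2 family genes described here are Bcl2, Bcl2l1, Bcl2a1b, Bcl2a1d, Mcl1, Bcl2l11 and Bax. They were taken by symbol, all 7 were found, and they are 7 of 32245 symbols measured. They were measured by droplet single-cell RNA sequencing of dissociated tissue from BALB/c mice aged 6 weeks that carried subcutaneous CT26 tumours, a colon carcinoma line of that strain. The control mice received phosphate-buffered saline and the treated mice received 100 µg of the anti-CTLA-4 antibody 9H10, both on days 5, 8 and 11 after inoculation, and tissue was taken on day 13. Anti-CTLA-4 blocks an inhibitory receptor of T cells. Each treatment has 1 expression library and 1 library of T cell receptor sequences, and the labels do not say how many mice each holds. No test across samples is therefore possible. Every interval below is a 95% interval for counting error only, and a difference between the libraries is a difference between those libraries. The list was chosen partly from these data, with the higher Bcl2a1b and Bcl2a1d of natural killer (NK) cells already known, so that contrast is given as a description.

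The family decides whether the outer mitochondrial membrane is opened, the step that commits a cell to apoptosis. Bcl2, Bcl2l1 (which encodes BCL-XL), Mcl1 and the Bcl2a1 genes (which encode A1) are guardians that hold the death-promoting members back. Bcl2l11 encodes BIM, a BH3-only protein that binds the guardians and activates the pore formers. Bax is a pore former. Resting lymphocytes are known to lean on BCL2, activated lymphocytes on A1 and BCL-XL, and neutrophils on MCL1 and A1.

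In the mouse, A1 is encoded by several near-identical copies on chromosome 9, so the sequences come first. In the GENCODE M21 annotation of GRCm38, Bcl2a1b (ENSMUSG00000089929) lies at chr9:89199209-89207827 on the plus strand and Bcl2a1d (ENSMUSG00000099974) at chr9:88723285-88731914 on the minus strand. Their annotated transcripts are identical at 99.1% of 817 aligned bases, with 7 mismatches. Bcl2a1a, a further copy, is 98.2% identical to Bcl2a1b and 98.8% to Bcl2a1d. Of the windows of 90 bases in the first 300 bases of the transcript, the end that a 5' library reads, 66.8% for Bcl2a1b and 70.1% for Bcl2a1d occur in no other annotated gene. Over the whole transcript these shares are 38.5% and 38.4%. Reads could thus be assigned to a copy in part of the transcript only, and BALB/c differences from the reference can shift the division, so values of single copies are uncertain, and reads that fit several copies may be missing from the sum as well. The stretch just upstream of each copy, from RefSeq on GRCm38.p6 and ended before the GENCODE transcript begins, shows how alike the copies also are upstream, with the 8-base ETS-type motif GAGGAAGT, the kind bound by PU.1, in capitals. They are Bcl2a1a at chr9:88956670-88956899 (plus strand), Bcl2a1b at chr9:89199023-89199208 (plus strand) and Bcl2a1d at chr9:88731915-88732100 (minus strand), each written 5′ to 3′.
Bcl2a1a: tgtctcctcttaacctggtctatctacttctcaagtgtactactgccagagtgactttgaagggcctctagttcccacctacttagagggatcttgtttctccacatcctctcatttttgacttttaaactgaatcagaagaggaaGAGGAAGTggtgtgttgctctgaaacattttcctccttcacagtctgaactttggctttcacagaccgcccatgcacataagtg
Bcl2a1b: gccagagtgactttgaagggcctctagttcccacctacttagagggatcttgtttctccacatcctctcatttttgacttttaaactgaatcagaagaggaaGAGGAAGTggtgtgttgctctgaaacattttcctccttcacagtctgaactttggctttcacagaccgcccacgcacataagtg
Bcl2a1d: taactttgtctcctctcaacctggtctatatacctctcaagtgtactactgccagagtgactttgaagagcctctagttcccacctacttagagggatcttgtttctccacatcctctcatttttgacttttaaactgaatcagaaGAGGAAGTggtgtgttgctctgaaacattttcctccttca

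The RefSeq windows of 300 bases around the start align over 250 bases between Bcl2a1b and Bcl2a1d, with 3 mismatches and 6 gap bases. The motif was chosen after the sequences were seen, and 8 motifs were searched on both strands of the 250 bases before the RefSeq start. GAGGAAGT occurred once in each copy, and in 2.44% of 32851 RefSeq promoters of that length. It starts at position -104 in Bcl2a1a and Bcl2a1d and at -148 in Bcl2a1b, counted from the RefSeq start. The AP-1 motif TGANTCA also occurred once in each copy and in 6.75% of all promoters. The NF-kappaB letters GGGNNTTCC (4.98% of promoters), a longer NF-kappaB form (0.14%), the STAT letters TTCNNNGAA (7.02%), the CRE letters TGACGTCA (1.55%), the NFAT letters TGGAAA (18.6%) and an interferon-response motif (2.98%) were not in these 3 windows.

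The other members lie apart from each other. Bcl2 (ENSMUSG00000057329) is at chr1:106538178-106714274 on the minus strand, Mcl1 (ENSMUSG00000038612) at chr3:95658788-95663176 on the plus strand and Bax (ENSMUSG00000003873) at chr7:45461697-45466898 on the minus strand. Bcl2l1 (ENSMUSG00000007659) at chr2:152780668-152831728 on the minus strand and Bcl2l11 (ENSMUSG00000027381) at chr2:128126038-128162547 on the plus strand share chromosome 2. Bcl2 overlaps the antisense gene D630008O14Rik and Bcl2a1d the antisense gene Gm10634, and the use of strand in the counting is not stated. On the same strand, Bcl2a1b overlaps the protein-coding gene Gm29094 and Bax the protein-coding gene Gm45808. Bcl2 overlaps Mir3473f and Gm37053 on its own strand. Reads in such overlaps can be ambiguous whatever the use of strand, and their part in the counts was not tested.

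The control library held 5649 barcodes with a median of 6827 UMIs (unique molecules counted) and the anti-CTLA-4 library 4186 with a median of 3147.5. After filters and removal of likely doublets, 5242 and 3950 cells remained, and 20 barcode sequences occurred in both libraries. Clusters were named from fixed marker lists, with every BCL2 family gene left out of the genes used for clustering. The classes differ in size between the libraries, from 380 control against 2131 anti-CTLA-4 T-like cells to 2586 against 19 tumour-like cells. Free tumour RNA was estimated from a set of 34 tumour genes. Each had a tumour-like level in the control at least 20 times that in every leukocyte class of the anti-CTLA-4 library. The set stood at 3.1% to 18.4% of its tumour-like level in the leukocyte classes of the control. It stood at 0.0891% to 0.655% in those of the anti-CTLA-4 library, where low values were fixed by that choice. Values with free RNA subtracted rest on it. The 14 markers used to name tumour-like cells were chosen with earlier results known. In T-like cells they summed to 8.1 UMIs per 10000 in the control and 0.849 with anti-CTLA-4. Levels are UMIs per 10000 UMIs of the class, and levels of different genes are not compared.

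Each member had its own order over the classes. Bcl2 was highest in control NK-like cells, at 1.84 UMIs per 10000 (156 UMIs, 230 cells), above T-like cells at 0.486, with intervals that did not overlap. In the anti-CTLA-4 library NK-like cells (0.588) and T-like cells (0.575) were next to each other with overlapping intervals. Neutrophil-like cells had no Bcl2 UMI in either library, in 83 and 219 cells. Mcl1 was highest in neutrophil-like cells of the control (11.3) and, with overlapping intervals, in monocyte/macrophage-like (8.25) and neutrophil-like cells (7.28) of the treated mice. Bcl2l1 was highest in neutrophil-like cells of both libraries (2.3 and 1.94), apart from all other classes.

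**Figure D1:**
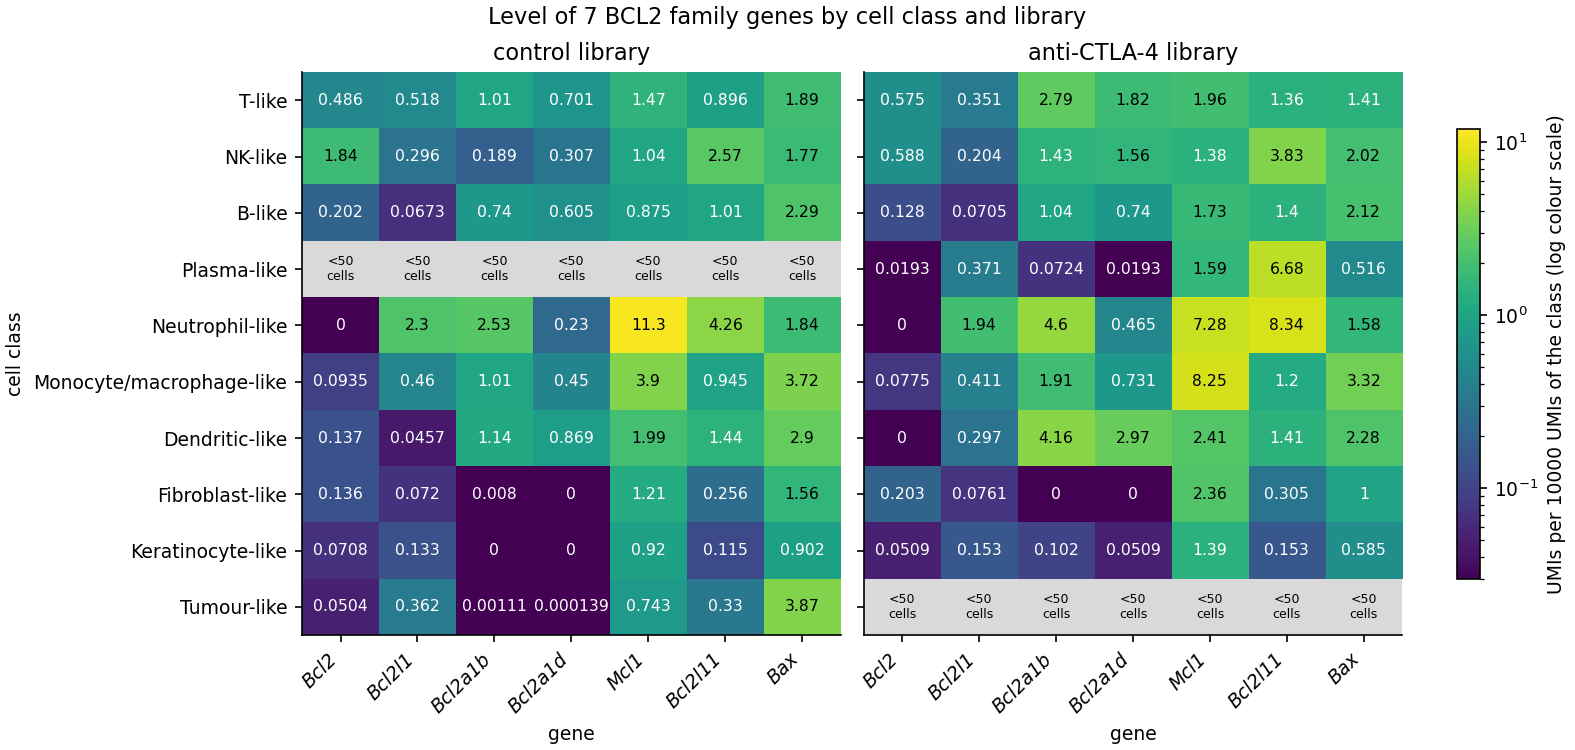
Level of the 7 genes (columns) in 10 cell classes (rows) in the control library (left) and the anti-CTLA-4 library (right), as UMIs per 10000 UMIs of the class on a log colour scale, with each value printed. Grey marks a class with under 50 cells. Bcl2 peaks in NK-like cells of the control (1.84), Bcl2l11 in neutrophil-like (8.34) and plasma-like cells (6.68) of the treated mice, and the Bcl2a1 columns are near 0 in fibroblast-like, keratinocyte-like and tumour-like cells.

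The Bcl2a1 genes were leukocyte genes in these libraries. Tumour-like cells of the control had 8 UMIs of Bcl2a1b and 1 of Bcl2a1d among 72036375. Fibroblast-like cells had 1 Bcl2a1b UMI in the control and 0 in the anti-CTLA-4 library. Without thinning 0.309% of tumour-like cells had a Bcl2a1b UMI. Thinning, here and below, brought cells to 1000 UMIs and left out those with fewer. Thinned and unthinned values thus do not cover the same cells. After thinning, 0 of 2563 tumour-like cells had a Bcl2a1b UMI. By a limit of 3 cells this allows a share of up to 0.117% with a UMI at that depth only. By contrast 11% of control T-like cells and 8.5% of control monocyte/macrophage-like cells had one after the same thinning (16.6% and 30.8% without). Keratinocyte-like cells had 0 UMIs of both genes in the control, and 8 of Bcl2a1b (0.102 per 10000) and 4 of Bcl2a1d with anti-CTLA-4. Free RNA from leukocytes was not measured.

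A member was counted as higher or lower where its level differed by at least 1.5-fold and the class held at least 50 of its UMIs over both libraries. In T-like cells all 7 members could be compared, and 3 were higher and 0 lower with anti-CTLA-4, while 12.7% of all genes compared there were higher and 12.5% lower. The 3 were Bcl2a1b (1.01 to 2.79, ratio 2.75, interval 2.24 to 3.42), Bcl2a1d (0.701 to 1.82, ratio 2.6, 2.03 to 3.38) and Bcl2l11 (0.896 to 1.36, ratio 1.52, 1.22 to 1.93). Bcl2l1 was at 0.518 and 0.351, a ratio of 0.678 (0.499 to 0.94) that lay just inside 1.5-fold and reached 0.512 with thinning. Bcl2l11 lay just outside it, and was at 1.35 among cells with a T cell receptor beta chain. Bcl2 was at 0.486 and 0.575, a ratio of 1.18 (0.872 to 1.65). With T-like cells of at least 1000 UMIs thinned to that depth the Bcl2a1b ratio was 1.91. Bax, carried also by tumour RNA, had a ratio of 0.747, and 0.883 with free RNA subtracted.

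**Figure D2:**
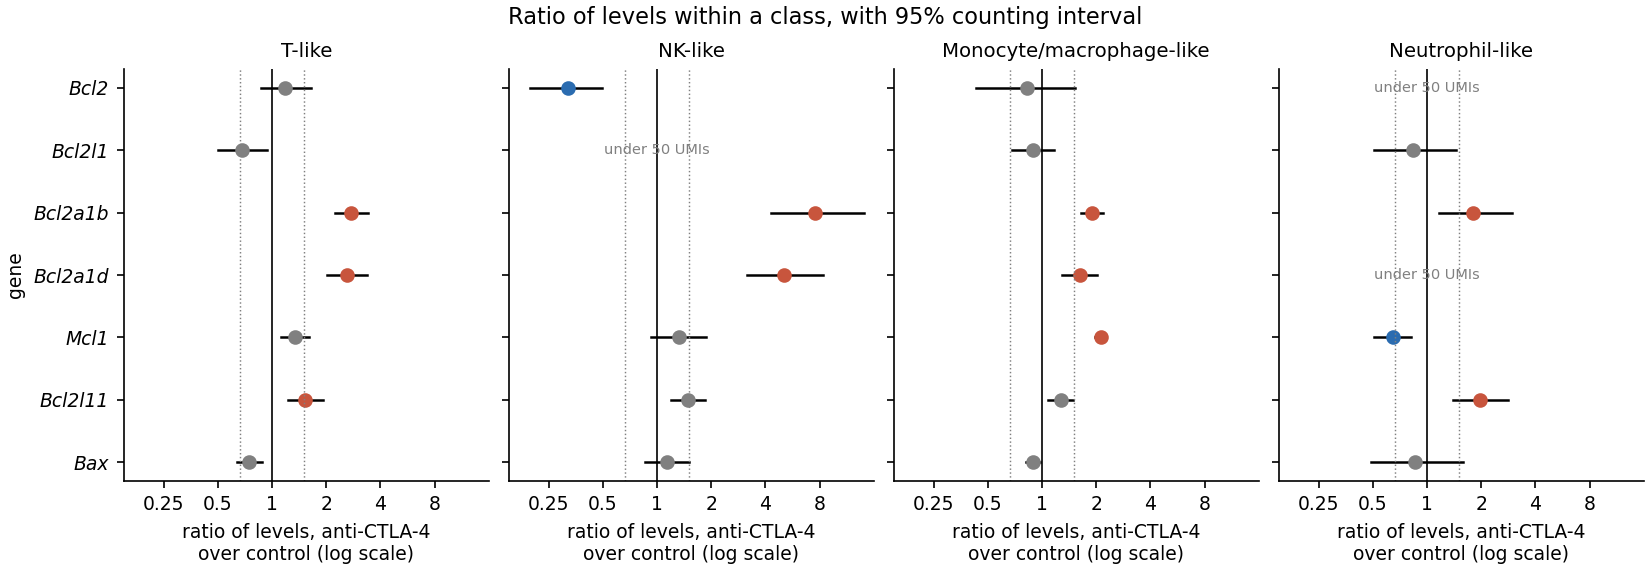
Ratio of the level with anti-CTLA-4 to that in the control (log axis) for the 7 genes in 4 classes. Points are ratios, lines 95% counting intervals, dotted lines 1.5-fold either way, red points higher and blue points lower by at least that. Bcl2a1b is to the right in all 4 panels (2.75, 7.56, 1.9 and 1.81), Bcl2 is to the left in NK-like cells (0.319), and Mcl1 is to the right in monocyte/macrophage-like cells (2.12) and to the left in neutrophil-like cells (0.645).

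The 5 T-like clusters divided these genes between them. Cluster 1, led by Lef1 and Tcf7, factors of naive T cells, and cluster 4, led by Cd8b1 and the lymph node homing receptor Ccr7, had Bcl2 at 0.824 and 0.944 UMIs per 10000 in the anti-CTLA-4 library. Their Bcl2a1b stood at 0.138 and 0.402. Cluster 9, led by the tissue-homing receptor Cxcr6 with Nkg7 and Cd8a, and cluster 11, led by Cxcr6 and the cytokine Il13, had Bcl2 at 0.21 and 0.306 and Bcl2a1b at 5.02 and 8.14. Over these clusters of the anti-CTLA-4 library Bcl2l1 followed Bcl2a1b, at 0.0286 and 0.0623 in clusters 1 and 4 against 0.522 and 0.926 in clusters 9 and 11. Cluster 13, led by Tnfrsf4, Ctla4 and Foxp3, is given as UMI counts, which are not levels and do not place it in this order. It had 50 UMIs of Bcl2l1 and 147 of Bcl2a1b in 202 cells with anti-CTLA-4, beside 107 and 1029 in 331 cells of cluster 9. In the control, cluster 1 had Bcl2l1 at 0.335 from 3 UMIs, with 0 UMIs of Bcl2a1b. These are descriptions of clusters, and no contrast between clusters was tested.

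The libraries differed in how many cells each cluster held and in levels within clusters. Clusters 9 and 11 held 15.5% and 15.1% of T-like cells with anti-CTLA-4 and 7.37% and 9.21% in the control. Within cluster 9 Bcl2a1b was at 1.4 in 28 control cells and 5.02 in 331 cells with anti-CTLA-4, a ratio of 3.59 (2.38 to 5.69). Within cluster 11 it was at 2.21 in 35 cells and 8.14 in 321, a ratio of 3.68 (2.46 to 5.76). Within cluster 4 the Bcl2a1b ratio was 1.05 (0.555 to 2.17), and the Bcl2a1d ratio was 0.274 from 8 control UMIs. The makeup of these clusters differed too. Cells of clonotypes seen in 2 or more cells made up 21.4% of cluster 9 in the control and 69.2% with anti-CTLA-4, and 8.57% and 44.5% of cluster 11, while Cxcr6 in cluster 9 was at 3.83 and 14.4. Fewer T-like cells were captured in the control (380 against 2131), and a clonotype is less often seen in 2 cells where fewer are captured. The clonotype shares of the libraries are thus not on equal terms. The part of makeup in these ratios was not tested. A higher Bcl2a1b with anti-CTLA-4 was found in the Cxcr6-led clusters, and not detectable in clusters 4 and 13 at these counts. Within cluster 13 the Bcl2a1b ratio was 1.12 (0.772 to 1.66) from 36 control UMIs, and the Bcl2a1d ratio 1.85 (1 to 3.72). Within cluster 1 Bcl2a1b had 0 UMIs in 48 control cells and 29 in 742 cells with anti-CTLA-4.

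**Figure D3:**
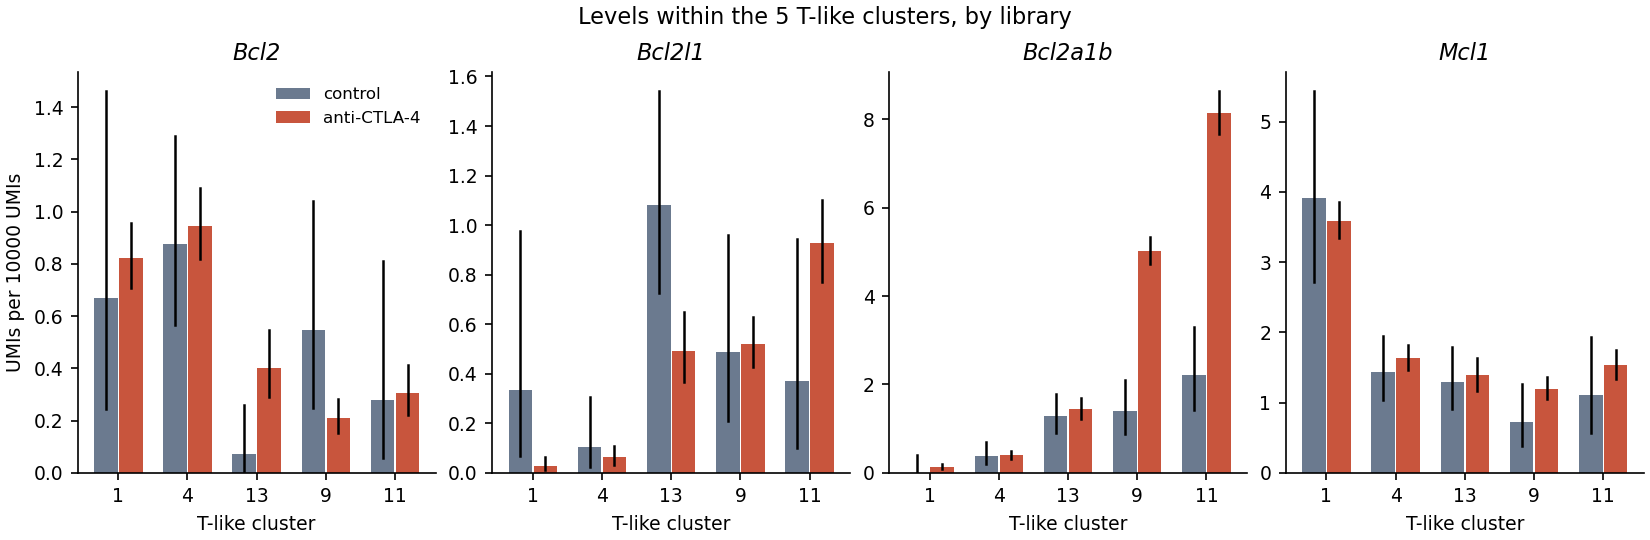
Level (UMIs per 10000 UMIs) of Bcl2, Bcl2l1, Bcl2a1b and Mcl1 in the 5 T-like clusters of the control (grey) and anti-CTLA-4 (red) libraries, with 95% counting intervals as lines. Each panel has its own vertical axis from 0. Bcl2a1b is at 5.02 and 8.14 in clusters 9 and 11 with anti-CTLA-4, while Bcl2 is highest in clusters 1 and 4 and Mcl1 in cluster 1 (3.91 and 3.59).

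Clonotype size, read from the receptor libraries and not from expression, gave a related division within the anti-CTLA-4 library. It is not separate from the clusters, since expanded clonotypes held 69.2% and 44.5% of clusters 9 and 11 but 2.29% and 3.36% of clusters 1 and 4. CD8 T cells (a Cd8a or Cd8b1 UMI, with no Cd4 or Foxp3) of clonotypes seen in 2 or more cells had Bcl2 at 0.119 UMIs per 10000 in 213 cells. Those of clonotypes seen in 1 cell had it at 0.775 in 294 cells, so that the expanded cells stood at a ratio of 0.153 (0.0811 to 0.267). Bcl2a1b went the other way, at 5.79 in expanded and 0.869 in single-cell clonotypes, a ratio of 6.67 (5.52 to 8.11). Bcl2a1d (3.74 and 0.461, ratio 8.12) and Bcl2l1 (0.559 and 0.0869, ratio 6.44, 3.52 to 12.7) were also higher. Mcl1 (ratio 0.774), Bcl2l11 (0.785) and Bax (1, interval 0.8 to 1.25) stayed within 1.5-fold. So 3 of 7 members were higher and 1 lower, where 25.8% of all genes compared were higher and 9.73% lower. Median depth was alike, at 4302 UMIs per expanded cell and 4365 per single-clonotype cell, while 16.4% and 7.14% of cells had an Mki67 or Top2a UMI, and the part of cycling in this difference was not tested.

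The expanded CD8 cells fell into 42 clonotypes, the largest with 25 cells (11.7%). Without it the ratios were 6.5 for Bcl2a1b and 0.159 for Bcl2. In the 18 clonotypes with at least 5 such cells, Bcl2a1b ranged from 2.4 through a median of 7.38 to 11.3 UMIs per 10000. All 18 were above the pooled single-cell clonotypes. Bcl2 had no UMI in 11 of the 18 and reached 0.755 in the highest. These cells share 1 library, and cells of a clonotype share their ancestor, so no test was made.

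In CD4 T cells Bcl2 was likewise lower, and Bcl2a1b, Bcl2a1d and Bcl2l1 higher, in expanded clonotypes. Expanded against single-cell clonotypes, Bcl2 was at 0.31 and 0.65 UMIs per 10000 (127 and 280 cells, ratio 0.476, 0.282 to 0.775). Bcl2a1b was at 6.54 and 3.08 (ratio 2.13, 1.85 to 2.45) and Bcl2l1 at 0.774 and 0.295 (ratio 2.63, 1.68 to 4.16). Bcl2l11 was lower in the expanded cells, at 0.816 against 1.39 (ratio 0.585). In all 3 members were higher and 2 lower, where 16.6% of genes compared were higher and 8.78% lower. The expanded cells were deeper (median 4488 UMIs against 3438) and 20.5% against 6.43% had an Mki67 or Top2a UMI. The largest CD4 clonotype had 8 cells, and without it the Bcl2a1b ratio was 2.11.

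**Figure D4:**
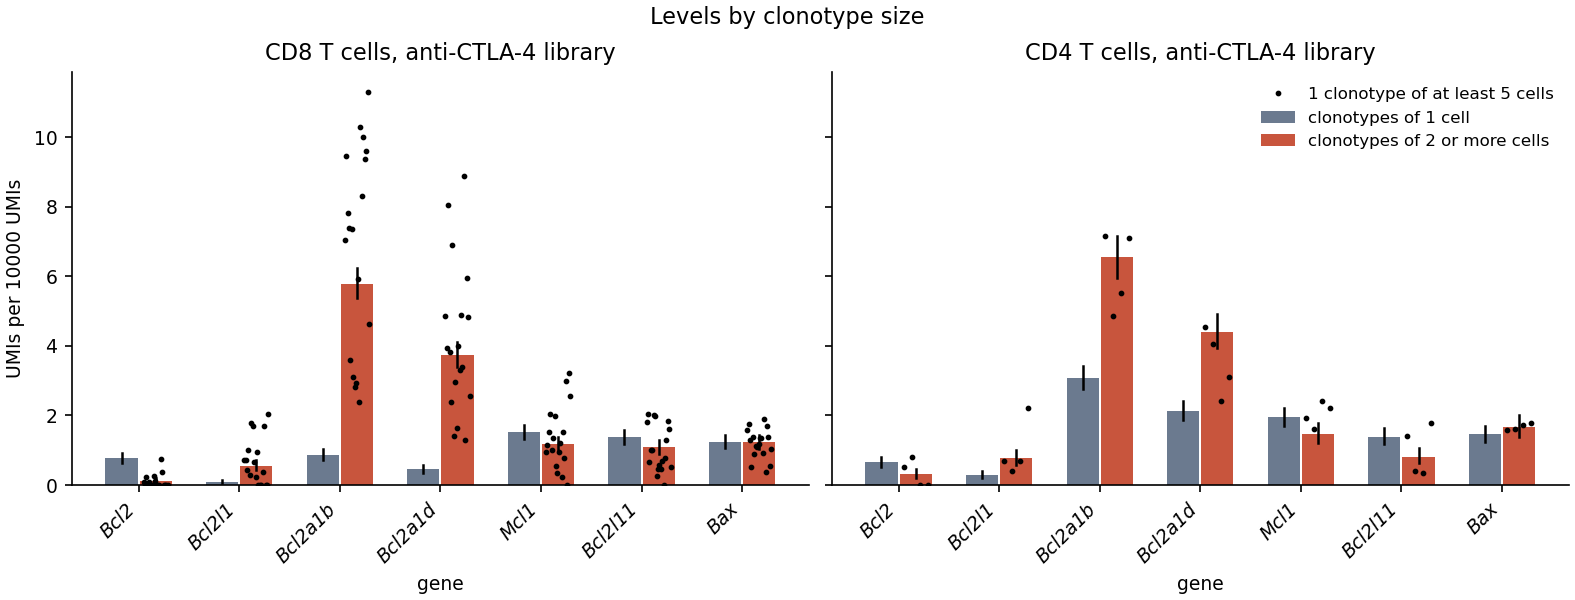
Level (UMIs per 10000 UMIs) of the 7 genes in CD8 T cells (left) and CD4 T cells (right) of the anti-CTLA-4 library, for clonotypes of 1 cell (grey bars) and of 2 or more cells (red bars). Lines are 95% counting intervals and points are single clonotypes with at least 5 cells. For Bcl2a1b in CD8 T cells all 18 points (2.4 to 11.3) lie above the grey bar (0.869), and for Bcl2 the red bar (0.119) is below the grey bar (0.775).

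The comparison of libraries in CD8 T cells set few expanded control cells against many. Over all CD8 T cells 3 of 7 members were higher with anti-CTLA-4 and 0 lower (16.8% and 17.7% of all genes compared), and Bcl2a1b went from 0.974 in 66 cells to 2.95 in 645 (ratio 3.03, 2.04 to 4.71). By subcluster 1 member was past 1.5-fold, and Bcl2a1d was at 1.38 in place of 2.5. Only 6 control CD8 T cells belonged to clonotypes of 2 or more cells. With fewer T cells captured in the control, its single-cell clonotypes may include cells of expanded clonotypes, in CD8 and CD4 T cells alike. Among single-cell clonotypes, 46 control cells stood at 1.04 and 294 cells with anti-CTLA-4 at 0.869, a ratio of 0.833 (0.527 to 1.37), and for Bcl2a1d the ratio was 0.608 (0.349 to 1.12). Bcl2l11, at a ratio of 2 over all CD8 T cells, kept 2.63 (1.44 to 5.34) among single-cell clonotypes. In CD4 T cells, single-cell clonotypes kept a Bcl2a1b ratio of 2.1 (1.26 to 3.79), beside 2.71 over all CD4 T cells.

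Over all CD4 T cells 3 members were higher and 1 lower (30.4% and 10.8% of genes compared), from 55 control cells with 4 to 26 UMIs of each member. Bcl2a1b (1.74 to 4.46) and Bcl2a1d (1.67 to 5.43) had intervals above 1. The intervals of the other higher member, Bcl2 (ratio 2.01, 0.768 to 7.5), and of the lower one, Bcl2l1 (0.577, 0.309 to 1.19), hold 1. With CD4 T cells named by subcluster in place of a Cd4 UMI, Bcl2a1d went from 2.87 to 0.774, Bcl2l1 from 0.577 to 1.08 and Bcl2a1b from 2.71 to 1.56, so these calls depend on how the cells are named. The other T cells had no Foxp3 UMI and had UMIs of neither Cd4 nor Cd8, or of both. Of 7 members 2 were higher there and 0 lower (17.3% and 11.5%). These were the Bcl2a1 genes, with Bcl2a1b at a ratio of 2.65 (1.79 to 4.1). That ratio was 1.49 with thinning and 4.29 by subcluster, and that of Bcl2a1d was 1.87, 1.25 and 4.11. Cells with a Foxp3 UMI, the mark of regulatory T cells, had other members past that size. There 0 of 5 members compared were higher and 2 lower (12.4% and 14.2%). Bax was at 3.05 in 65 control cells and 1.59 in 124 cells with anti-CTLA-4 (ratio 0.522, 0.378 to 0.726; 0.56 with free RNA subtracted), and Bcl2l1 at 0.879 and 0.452 (ratio 0.515, 0.279 to 0.986). Bcl2a1b was at 1.19 and 1.12. Early-response genes, which dissociation also induces, were lower in 9 of 13 compared there and higher in 0, and their part was not tested. Mcl1, at a ratio of 1.26, stood at 3 with thinning, and Bcl2l11, at 1.34, stood at 2.27 by subcluster and 1.85 with a mean over cells, so the count of 0 higher does not hold there. Bcl2 had 0 UMIs in the control and 19 with anti-CTLA-4 (0.261 per 10000), and the lower end of the interval of that ratio was 1.24.

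In NK-like cells the values used in choosing the members were Bcl2a1b, at 0.189 UMIs per 10000 (16 UMIs, 230 cells) in the control and 1.43 (56 UMIs, 105 cells) with anti-CTLA-4, and Bcl2a1d, at 0.307 and 1.56. The ratios were 7.56 (4.28 to 14.1) and 5.07 (3.16 to 8.36). In the same contrast Bcl2 went the opposite way, from 1.84 to 0.588 (156 and 23 UMIs, ratio 0.319, 0.196 to 0.496). Bcl2l11 was at 2.57 and 3.83 (ratio 1.49), Mcl1 at 1.04 and 1.38 (1.33) and Bax at 1.77 and 2.02 (1.14), all within 1.5-fold. So 2 of 6 members were higher and 1 lower. Over all genes compared the shares were 18.7% and 13.4%, and nothing is read from the members' count, since the values of these 2 led to the list. With cells thinned to 1000 UMIs, the share of cells with a Bcl2a1b UMI was 0.957% and 11.1%, and with a Bcl2 UMI 16.3% and 7.07% (without thinning 6.09% and 25.7%, and 42.6% and 17.1%).

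The NK-like cells differed between the libraries in other ways too. The summed level of 12 NK markers was 145 UMIs per 10000 in the control and 66.6 with anti-CTLA-4, and that of 9 T-cell markers 7.95 and 12.3. A T cell receptor beta chain was found in 3.04% and 4.76% of them. Among NK-like cells of the largest subcluster, 203 and 94 cells, Bcl2 was at 1.91 and 0.606 and Bcl2a1b at 0.207 and 1.41. Among cells with no Mki67 or Top2a UMI, Bcl2 was at 2.23 in 184 control cells and 0.642 in 94 cells with anti-CTLA-4. Of the early-response genes that dissociation also induces, 7 of 15 were higher, among them Nr4a1 (ratio 2.67) and Fos (2.48). The 2 that were lower included Ier3 (0.103, 0.0207 to 0.315), and the part of these genes in the result was not tested. Of genes already known to differ here, the chemokine receptors Cxcr6 and Cxcr4 had ratios of 6.84 and 5.14, the nuclear receptor Nr4a3 5.3 and the chemokine Ccl5 2.69.

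Among the members, Mcl1 had the largest ratio in monocyte/macrophage-like cells in the main analysis. Mcl1 was at 3.9 UMIs per 10000 in 830 control cells (1583 UMIs) and 8.25 in 284 cells with anti-CTLA-4 (1704 UMIs), a ratio of 2.12 (1.98 to 2.27). That interval overlapped the one of Bcl2a1b (1.65 to 2.18). With cells thinned to 1000 UMIs the order was reversed, at 1.78 for Mcl1 and 2.24 for Bcl2a1b. The share of cells with an Mcl1 UMI after thinning was 34% and 52.2% (68.1% and 92.6% without). Bcl2a1b (1.01 and 1.91, ratio 1.9) and Bcl2a1d (0.45 and 0.731, ratio 1.62) were the other members higher, so that 3 of 7 were higher and 0 lower, beside 19.2% and 18.1% of all genes compared. Bax (3.72 and 3.32), Bcl2l1 (0.46 and 0.411) and Bcl2 (0.0935 and 0.0775) stayed within 1.5-fold.

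The makeup of that class differed as well, with 609 control and 50 anti-CTLA-4 cells in cluster 5, led by the complement genes C1qa and C1qb, and 221 and 234 in cluster 7, led by Cd14 and Arg1. Within cluster 5 Mcl1 was at 3.43 and 7.38 (ratio 2.15, 1.85 to 2.49), and within cluster 7 at 5.27 and 8.4 (1.59, 1.44 to 1.76). Mcl1 was thus higher with anti-CTLA-4 within both clusters. Bcl2a1b had a ratio of 1.09 (0.717 to 1.6) in cluster 5 and 1.51 (1.24 to 1.85) in cluster 7. Bcl2l11, at 1.27 over the class, stood at 0.709 (0.381 to 1.22) within cluster 5 and 0.741 (0.608 to 0.904) within cluster 7, so its direction over the class was not that within the clusters. Bax was lower within cluster 5 (3.58 and 2.17, ratio 0.606, 0.464 to 0.778). Bcl2l1, at 0.894 over the class, stood at 0.75 (0.38 to 1.35) within cluster 5 and 1.7 (1.07 to 2.8) within cluster 7.

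Neutrophil-like cells had the opposite order for Mcl1. It was at 11.3 in 83 control cells (98 UMIs) and 7.28 in 219 cells with anti-CTLA-4 (282 UMIs), a ratio of 0.645 (0.511 to 0.82). With median-of-ratios scaling this ratio was 0.959, so the difference depends on the scaling. That scaling used every gene with a UMI in both libraries, however few. The median log2 ratio of all genes compared in this class, each with at least 50 UMIs, was 0.22. Scaling by that positive median would lower the Mcl1 ratio and not raise it, and was not run. Bcl2l11 was at 4.26 and 8.34 (ratio 1.96, 1.39 to 2.83, and 2.91 with median-of-ratios scaling) and Bcl2a1b at 2.53 and 4.6 (1.81, 1.16 to 2.97). Of 5 members compared 2 were higher and 1 lower, beside 34.8% and 16.5% of all genes. These cells were shallow, with medians of 933 and 1658 UMIs, and free tumour RNA stood at 18.4% of its tumour-like level in the control. Early-response genes were lower in 12 of 16 compared, and their part in the Mcl1 difference was not tested.

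Dendritic-like cells had Bcl2a1b at 1.14 UMIs per 10000 in 66 control cells and 4.16 in 55 cells with anti-CTLA-4 (ratio 3.64, 2.66 to 5.05). Bcl2a1d was at 0.869 and 2.97 (3.42, 2.38 to 5.02). These were the 2 of 5 members that were higher, with 0 lower, beside 15.3% and 19.1% of all genes. The summed dendritic marker level was 47.2 in the control and 72.6 with anti-CTLA-4, with 6 and 9 of 12 markers in at least 20% of cells, so the makeup of the class differed and its part was not tested. Bcl2 had 6 UMIs in the control and 0 with anti-CTLA-4.

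B-like cells had Mcl1 at 0.875 in 72 control cells (13 UMIs) and 1.73 in 620 cells with anti-CTLA-4 (392 UMIs), a ratio of 1.98 (1.14 to 3.74). It was the only member past 1.5-fold of 5 compared, beside 23.5% of genes higher and 12% lower. Plasma-like cells, the antibody-secreting stage, were found in the anti-CTLA-4 library alone (93 cells, against 0). Their Bcl2l11 stood at 6.68 UMIs per 10000 (1385 UMIs, 6.33 to 7.04), beside 1.4 in B-like cells of that library (317 UMIs). Immunoglobulin genes took 43.1% of plasma-like UMIs, and with them left out of the total Bcl2l11 was at 11.7 and 1.41. Bcl2l1 was also above B-like cells, at 0.371 (77 UMIs) beside 0.0705, or 0.653 beside 0.0712 without immunoglobulin genes. Bcl2a1b, Bcl2a1d, Bcl2 and Bax were below B-like cells with and without immunoglobulin genes. Bcl2a1b was at 0.0724 (15 UMIs) beside 1.04 in B-like cells and Bcl2a1d at 0.0193 (4 UMIs) beside 0.74. Bcl2 was at 0.0193 (4 UMIs) beside 0.128 and Bax at 0.516 beside 2.12. Without immunoglobulin genes Bcl2a1b was at 0.127 beside 1.05, Bcl2a1d at 0.0339 beside 0.748 and Bax at 0.907 beside 2.14. Bcl2 was then at 0.0339 beside 0.129, with overlapping intervals. Mcl1, known as the guardian of plasma cells, was at 1.59, or 2.8 without immunoglobulin genes, beside 1.73 and 1.75 in B-like cells. Thinned to 1000 UMIs, 34.1% of plasma-like and 12.4% of B-like cells had a Bcl2l11 UMI (93.5% and 29.4% without thinning, at medians of 24410 and 2884.5 UMIs).

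Tumour-like cells could be described in the control library only. Bax was at 3.87 UMIs per 10000 (27853 UMIs, 3.82 to 3.91), Mcl1 at 0.743, Bcl2l1 at 0.362, Bcl2l11 at 0.33 and Bcl2 at 0.0504. Bax was highest there and in monocyte/macrophage-like cells of the same library (3.72), whose intervals overlapped. Over the 5 tumour-like clusters Bax varied least in proportion, from 3.06 to 4.7, while Bcl2l11 ranged from 0.135 in cluster 2, led by the hypoxia-induced genes Ankrd37 and Bnip3, to 0.764 in cluster 18, a shallow cluster led by Neat1 and Malat1. Mcl1 ranged from 0.457 to 1.8 and Bcl2l1 from 0.256 to 1.17, both highest in cluster 18. Cells with an Mki67 or Top2a UMI and those without stood at 3.67 and 4.1 for Bax.

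Fibroblast-like cells had Mcl1 at 1.21 and 2.36 (ratio 1.95, 1.57 to 2.44) and Bax at 1.56 and 1 (0.643, 0.488 to 0.839), so 1 of 3 members was higher and 1 lower, beside 19.3% and 16.6% of all genes. Keratinocyte-like cells had Mcl1 at 0.92 and 1.39 (1.51) and Bax at 0.902 and 0.585 (0.649), 1 of 2 each way, beside 18.5% and 18.5%. Both classes held the tumour gene set at 33.4% to 70.5% of its tumour-like level, more in the control, and its part in their Bax values was not tested.

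The division of A1 UMIs among gene copies differed between classes. In T-like cells Bcl2a1a made up 1.85% of the 162 UMIs of Bcl2a1a, Bcl2a1b and Bcl2a1d in the control (0.384% to 5.32%) and 0.501% of 3996 with anti-CTLA-4 (0.306% to 0.772%). In monocyte/macrophage-like cells it made up 24.6% of 786 (21.6% to 27.7%) and 20.8% of 689 (17.8% to 24%). In neutrophil-like cells it was 11.1% of 27 in the control (2.35% to 29.2%) and 34.2% of 298 with anti-CTLA-4 (28.9% to 39.9%), where the level of Bcl2a1a was 0.346 from 3 UMIs and 2.63 from 102 (ratio 7.62, 2.53 to 37.6). In dendritic-like cells it was 14.6% and 18.2%. Bcl2a1a was thus found mainly in myeloid classes, with intervals apart from those of T-like cells in the anti-CTLA-4 library. The UMIs of Bcl2a1b over those of Bcl2a1d were 1.53 (1.44 to 1.63) in T-like cells, 2.62 (2.16 to 3.18) in monocyte/macrophage-like cells and 9.89 (6.08 to 17.1) in neutrophil-like cells with anti-CTLA-4. In NK-like cells with anti-CTLA-4 they were 0.918 (0.627 to 1.34). Bcl2a1c, another copy, was left out of these shares. It had 1 UMI in T-like cells of the control and 93 with anti-CTLA-4, and 11 and 10 in monocyte/macrophage-like cells. Each share may be biased by the likeness of the copies.

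**Figure D5:**
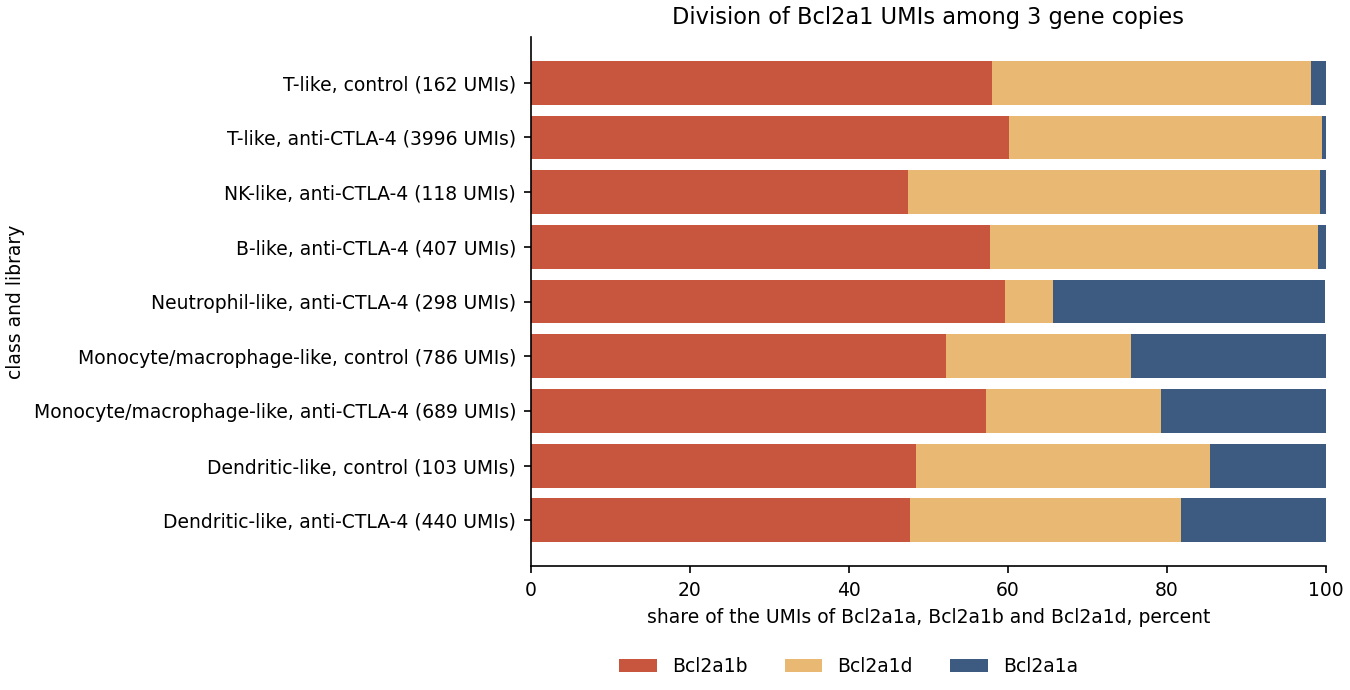
Share of the UMIs of Bcl2a1a, Bcl2a1b and Bcl2a1d that fell on each copy (percent, bars sum to 100), by class and library, for classes with at least 50 such UMIs. Bcl2a1a (blue) is 0.501% in T-like and 34.2% in neutrophil-like cells with anti-CTLA-4.

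The other genes of the pathway were described over lists. In NK-like cells 7 of 13 NF-kappaB targets and factors compared were higher and 0 lower, with a median log2 ratio of 0.67 beside 0.06 over all genes. Among them Nfkb1, an NF-kappaB subunit, had a ratio of 2.8 (2.13 to 3.71) and Tnfaip3, a feedback inhibitor, 2.59. All genes compared were higher in 18.7% and lower in 13.4% of cases in NK-like cells, and in 12.7% and 12.5% in T-like cells, which is the background for every list here. In T-like cells the same list had 3 of 14 higher and 3 lower, with a median of -0.06 beside -0.06. The cytokine Tnf was higher (ratio 3.8, 2.1 to 7.68) and the inhibitor Nfkbia lower (0.533, 0.496 to 0.573). In myeloid classes the NF-kappaB list had 8 of 10 higher and 0 lower in neutrophil-like cells, where 34.8% of all genes were higher and 16.5% lower. It had 5 of 14 higher and 1 lower in monocyte/macrophage-like cells (19.2% and 18.1% of all genes), and 10 of 14 higher and 1 lower in dendritic-like cells (15.3% and 19.1%). Of the cytokine receptor and STAT5 list, 4 of 9 were higher and 0 lower in NK-like cells and 0 of 12 higher and 2 lower in T-like cells, Il2ra (0.48) and Il15ra (0.306). Of the caspase and apoptosome list, 2 of 6 were higher and 2 lower in NK-like cells, with Cycs (cytochrome c) at 2.19, and 2 of 14 each way in T-like cells. The death receptor list had 1 of 5 higher in NK-like cells, Fasl, and 1 of 10 higher and 2 lower in T-like cells. Of the p53 targets 1 of 6 was higher in NK-like cells, Bbc3 (PUMA), and 1 of 10 each way in T-like cells, with Cdkn1a, the cell-cycle inhibitor p21, at 0.404.

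The genes most alike to each member were found over 18 class and library levels, by Pearson's r of log2 levels among 10770 genes, as a description. Bcl2 was most like Rab19 (0.91), Gimap7 and Gzme. Bcl2l1 was most like Parp10 and Rsad2 (both 0.89) and Glrx, Bcl2a1b like Samsn1 (0.92), Snx20 and Lmnb1, and Bcl2a1d like Gpr132 (0.96), Myo1g and Dock10. Mcl1 was most like Vps18 (0.96), Pfkfb4 and Tlr2, Bcl2l11 like Arid3b (0.86), Srgn and Nudt18, and Bax like Arhgdia (0.90), Arpc1b and Rhoa. Between members, r was 0.88 for Bcl2a1b with Bcl2a1d, 0.69 for Mcl1 with Bcl2l1 and -0.42 for Bcl2 with Mcl1. The levels share libraries and depth, so these values carry no p.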

How the data were processed

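Cells came from 2 droplet expression libraries and 2 T cell receptor libraries, 1 of each per treatment. The B cell receptor library was not used here. Tissue was dissociated and loaded on the 10x Genomics 5' immune profiling kit, per the labels' protocols, and Cell Ranger 5.0.0 with mm10 and GRCm38 is named in the submitters' processing notes. The expression values are raw UMI counts per gene and barcode as deposited by the authors (32285 genes, 32245 symbols after genes that share a symbol were summed). The receptor tables hold deposited contig calls with the authors' clonotypes, whose cells were counted to give clonotype size. The annotation release is not given in the sources used here.

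Kept barcodes had 200 or more detected genes and a mitochondrial share of UMIs no higher than 15%. The barcodes with the highest Scrublet scores were removed at 0.8% per 1000 barcodes, the same rule in both libraries (240 control, 4.39%, and 133 anti-CTLA-4, 3.27%). Clustering used scanpy 1.11.5 and leidenalg 0.10.2 (2000 variable genes, 30 components, 15 neighbours, resolution 1.0). Clusters were named from marker lists where at least 3 markers stood out. The thresholds, the comparison of tumour markers with leukocyte clusters only, and the exemption of Ccr7, a dendritic marker that T cells share, were set after the data were seen. Clusters 8 (285 control and 164 anti-CTLA-4 cells) and 10 (334 and 22) stayed unnamed.

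Levels are UMI sums over class totals with exact Poisson intervals, ratios have exact conditional binomial intervals and shares Clopper-Pearson intervals, all at 95%, and UMIs counted by chance are their only error. The interval code was tested on simulated data. No model was fitted, since there is 1 library per treatment. The named genes are the 7 members in every class, from each pathway list up to 4 genes past 1.5-fold by the interval bound nearest to 1 in NK-like or T-like cells, the 3 genes most alike to each member, and Cxcr6, Cxcr4, Nr4a3 and Ccl5. Bcl2a1a, Fasl, Bbc3 and the genes that lead clusters were named after their values were seen. Members, lists and tests were chosen with earlier results of these data known. Coordinates are from GENCODE M21 and sequences from RefSeq on GRCm38.p6, both of the files' build.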

Additional observations from a re-analysis of the deposited data

Results flagged for a closer look

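Mcl1 went in opposite directions between classes under the same contrast. The ratio of anti-CTLA-4 over control was 2.12 in monocyte/macrophage-like cells and 1.98 in B-like cells, and 0.645 in neutrophil-like cells, with intervals that exclude 1 in all 3. The difference between the classes was not tested, since there is 1 library per treatment. With median-of-ratios scaling, over every gene with a UMI in both libraries, the ratio in neutrophil-like cells was 0.959. The median log2 ratio of genes with at least 50 UMIs there was 0.22, and scaling by it would move the ratio the other way.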

How the results depend on the processing

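No paired analysis was possible because each treatment has 1 library, so no replicate could be left out either. Of 642 planned ratios, 609 stayed within the interval of the reported ratio, some on the other side of 1 where that interval holds 1, 31 moved beyond it, and 2 reversed a difference of at least 1.5-fold. Of 66 ratios added after seeing the data 33, 29 and 4 did so. The reversed ratios of that size were Bcl2l1 at 1.08 and Bcl2a1d at 0.774 in CD4 T cells named by subcluster, Bcl2a1b at 0.833 and Bcl2a1d at 0.608 in CD8 T cells of single-cell clonotypes, Bcl2a1d at 0.274 in T-like cluster 4 and Bcl2l11 at 0.791 in T-like cluster 11. Among the planned ratios, smaller ones that moved to the other side of 1 and out of their interval were, by subcluster, Bcl2l11 in CD4 T cells (1.44 to 0.758) and Bcl2l11 (1.46 to 0.613) and Mcl1 (1.46 to 0.653) in other T cells, and, with thinning, Mcl1 in dendritic-like cells (1.21 to 0.867). Over the alternatives run on each class, the ratio in NK-like cells stayed between 6.67 and 16.9 for Bcl2a1b, 4.69 and 8.04 for Bcl2a1d and 0.224 and 0.367 for Bcl2. In T-like cells Bcl2a1b ranged from 1.91 to 3, and in monocyte/macrophage-like cells Mcl1 ranged from 1.78 to 2.15.

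Of 148 counts of members past 1.5-fold, 120 stayed within 1.5 times and 28 did not, and the cause was not tested. A fold of 2 left 0 members in B-like, fibroblast-like, keratinocyte-like, neutrophil-like and Foxp3+ T cells and 1 in monocyte/macrophage-like and other T cells. In Foxp3+ T cells (2 in the main analysis) the count was 4 with a mean over cells, thinning or subclusters, and 1 with at least 500 genes or with T cell receptor beta required. In other T cells (2) it was 4 with median-of-ratios scaling, free RNA subtracted or subclusters, 5 with a mean over cells and 1 with thinning. CD8 T cells named by subcluster had 1 in place of 3. In B-like cells (1) it was 2 with a mean over cells, at least 20 UMIs or no minimum, and in dendritic-like cells (2) it was 4 with no minimum. In keratinocyte-like cells (2) it was 1 with a mitochondrial limit of 10%, at least 500 genes, a mean over cells or thinning, 0 with doublets kept and 4 with no minimum.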

Other observations

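The 2 clusters left without a name also carried members. Cluster 8, led by Ctsk and Acp5, had Mcl1 at 4.36 UMIs per 10000 in 285 control cells and 4.11 in 164 cells with anti-CTLA-4, and Bax at 4.26 and 3.59. Its Bcl2a1a was at 0.245 (10 UMIs) and 0.737 (40 UMIs), and its Bcl2l11 at 1 and 0.387. Cluster 10, led by the haemoglobin gene Hbb-bs, had Bax at 3.07 in 334 control cells and 1 UMI each of Bcl2a1b and Bcl2a1d.

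Among T-like cells with an Mki67 or Top2a UMI, Bcl2a1b was at 0.887 in 47 control cells and 2.88 in 167 cells with anti-CTLA-4, close to the values of 1.06 and 2.77 in the other T-like cells. Bcl2 was at 0.296 and 0.305 in the cycling cells and 0.551 and 0.638 in the others. Bcl2l11 was at 0.76 and 0.788 in the cycling cells and 0.942 and 1.5 in the others.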
